A study of Mus musculus with 36 samples.

Results

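Genes of hepatic iron handling were followed across the day in livers with and without thyroid hormone receptor beta (THRB): Hamp, Hamp2, Tfrc, Tfr2, Trf, Fth1, Ftl1, Slc40a1, Hfe and Id1. They were chosen by gene name, and all 10 of them were found among the 54532 genes of the count table and passed the minimum summed count that left 17994 genes for testing. The livers came from chow-fed adult male mice aged 2 to 3 months, kept in 12 h light and 12 h dark. The control group (THRBWT) consisted of heterozygous THRB+/- animals, and the knockout group (THRBKO) of THRB-/- animals from the line B6.129S1-Thrbtm1Df/J on the C57Bl/6NCrl background, in which DNA binding by both THRB isoforms is impaired in every tissue and not in hepatocytes alone. Both groups therefore carried the targeted allele, on 1 or on both chromosomes. At each of 6 zeitgeber times (ZT, hours after lights on; ZT2, ZT6, ZT10, ZT14, ZT18 and ZT22), 3 mice per genotype were sampled, giving 36 poly(A) RNA-seq libraries in 12 groups.

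Systemic iron is set by the liver through hepcidin, the peptide encoded by Hamp. Hepcidin binds ferroportin (Slc40a1), the only known cellular iron exporter, and causes its breakdown, so that high hepcidin keeps iron inside macrophages, enterocytes and hepatocytes. Hamp transcription is driven mainly by bone morphogenetic protein (BMP) and SMAD signalling, with HFE, transferrin receptor 2 (Tfr2) and hemojuvelin (Hjv) at the hepatocyte surface and Id1 as a second target gene of the same signal. Interleukin 6 acts through STAT3. Inside cells the iron regulatory proteins, encoded by Aco1 and Ireb2, bind hairpins called iron-responsive elements (IREs). Binding in the 3′ UTR protects the transferrin receptor mRNA (Tfrc), and binding in the 5′ UTR blocks translation of the ferritin mRNAs (Fth1, Ftl1) and of one ferroportin mRNA form.

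Hairpins of this type were found in 4 of the 10 genes and are shown because they separate the members into those whose mRNA can be stabilised and those whose translation can be blocked. Each line gives 29 bases, 5′ to 3′, of the GENCODE transcripts on GRCm38, with the loop in capitals. The rule asked for an unpaired C, a stem of 5 base pairs (G-T pairs allowed) and a loop of 6 bases that starts with CAGTG and does not end in G.
Tfrc hairpin 1, 3′ UTR, chr16:32631219-32631247, plus strand: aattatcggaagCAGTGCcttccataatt
Tfrc hairpin 2, 3′ UTR, chr16:32631598-32631626, plus strand: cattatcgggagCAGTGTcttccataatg
Tfrc hairpin 3, 3′ UTR, chr16:32631663-32631691, plus strand: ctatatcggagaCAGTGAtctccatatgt
Tfrc hairpin 4, 3′ UTR, chr16:32631710-32631738, plus strand: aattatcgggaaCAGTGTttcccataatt
Fth1 hairpin, 5′ UTR, chr19:9982732-9982760, plus strand: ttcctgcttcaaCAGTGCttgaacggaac
Ftl1 hairpin, 5′ UTR, chr7:45459779-45459807, minus strand: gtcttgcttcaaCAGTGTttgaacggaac
Slc40a1 hairpin, 5′ UTR, chr1:45925465-45925493, minus strand: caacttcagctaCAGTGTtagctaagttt

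Among 21901 protein-coding genes, 222 (1.01%) held such a hairpin anywhere in a transcript. Tfrc was the 1 gene with 3 or more different ones. A match describes letters and is not a measured binding site, and no match in the other 6 members says nothing about iron regulatory proteins.

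The hepcidin genes lie on the minus strand of chromosome 7, Hamp at 30942368 to 30944032 and Hamp2 at 30922372 to 30924681 (GRCm38). Their promoters in the RefSeq table (GRCm38.p6) were 91.1% identical, 276 of 303 aligned columns, while their transcripts were 74.8% identical. The stretches from 160 to 41 bases before the RefSeq start site are shown because they hold motifs of the known hepcidin inputs. The RefSeq start of Hamp2 and its stretch lie inside the gene span given above, downstream of the 5′ end of that span. GGCGCC (the core of a BMP-responsive site) and TTCNNNGAA (a STAT site) are in capitals.
Hamp, chr7:30944070-30944189, minus strand: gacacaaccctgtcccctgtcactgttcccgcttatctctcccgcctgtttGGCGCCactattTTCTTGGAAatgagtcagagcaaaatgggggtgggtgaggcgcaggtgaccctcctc
Hamp2, chr7:30924222-30924341, minus strand: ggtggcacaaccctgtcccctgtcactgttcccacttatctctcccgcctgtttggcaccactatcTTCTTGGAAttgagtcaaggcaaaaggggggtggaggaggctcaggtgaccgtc

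Hamp held both motifs, GGCGCC starting 109 and TTCTTGGAA starting 97 bases before the start. Hamp2 held the STAT motif, starting 94 bases before its start, but not the first motif, from which it differed by G4A (Hamp base, position from the first base of the motif, Hamp2 base). Both motifs read the same way on either strand and do not overlap each other. In windows of 300 bases around 32851 start sites, GGCGCC was present in 11.9% and TTCNNNGAA in 8.3%. Of the 7 members with an entry, Hamp and Tfrc held GGCGCC in this window, and Hamp and Hamp2 held TTCNNNGAA. CACGTG, the E-box bound by the clock factors CLOCK and BMAL1, was present in 7.15% of these windows and in 0 of the 7 members with an entry (Trf, Slc40a1 and Id1 were not among the matched promoters).

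Library totals ranged from 29063273 to 39913574 counts in THRBWT and from 31008555 to 42530551 in THRBKO. Levels are given as CPM, counts scaled to a common library size with a TMM correction for library composition. Thrb itself was counted at 24.3 to 38.5 CPM in THRBWT and 26.2 to 37.7 in THRBKO, so the gene count did not separate the genotypes and does not check the labels of an allele that impairs DNA binding. Hepatocyte markers (8 genes, Alb and Apoa1 among them) summed to 69099 to 93696 CPM in THRBWT and 76160 to 97773 in THRBKO. Markers of Kupffer cells summed to 163 to 555 and 168 to 334 CPM, and those of erythroid cells to 219 to 984 and 145 to 646. No marker of the 7 cell type lists was at 0 in all libraries, and none was called for genotype. The library farthest from its group was THRBKO ZT14 replicate c, with a root mean square deviation of 0.379 on the log2 scale against 0.243 to 0.342 in the others.

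Hamp was the member with the highest level per length. In THRBWT, CPM per kilobase of the gene length listed in the table was 3205 ± 1340 (SD, n = 18) for Hamp, followed by 1692 ± 195 for Fth1, 1228 ± 147 for Ftl1, 532 ± 74.9 for Trf and 103 ± 6.84 for Tfr2. Lower levels per kilobase were found for Hamp2 (21.1 ± 13.7), Slc40a1 (15.5 ± 4.3), Hfe (13.2 ± 0.94), Id1 (9.52 ± 4.68) and Tfrc (4.23 ± 1.73). Neighbours in this order overlapped within 1 SD at the top (Hamp and Fth1) and among the 5 lowest genes. The order was the same in THRBKO, from 3367 ± 1191 for Hamp to 3.8 ± 2.1 for Tfrc. Divided by the length of the annotated transcript with the longest coding sequence, Ftl1 (1700 in THRBWT) stood above Fth1 (981) and Slc40a1 (41.5) above Hamp2 (29), so these orders depend on the length used. No near-identical copy of Hamp was found, and Hamp2 transcripts are too different (74.8% identity) to pass that search. The counts of 11 near-identical copies of Ftl1 amounted to 3.02% of its own.

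With both genotypes together, 6 of 10 members differed among the 6 sampling times (edgeR quasi-likelihood test with Benjamini-Hochberg adjustment over all tested genes, threshold 0.05), against 45.0% of all tested genes. The 6 were Tfrc, Hamp, Slc40a1, Tfr2, Hfe and Id1, and among them Tfrc and Hamp had the widest swings, 3.08-fold and 2.95-fold between their highest and lowest sampling times. Below, an adjusted p beside a highest and a lowest time is of the test over all 6 times, not of that pair. These pairs of times were picked as the extremes of the same values, which favours a separation of their livers. Since bulk liver was sequenced, fewer cells of a type and less RNA per cell cannot be told apart.

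Hamp, which encodes hepcidin, was lowest at ZT6, in the middle of the light phase, and highest at ZT14, shortly after lights off. At ZT6 the 3 THRBWT livers had 496, 609 and 965 CPM and the 3 THRBKO livers 892, 579 and 600 CPM. At ZT14 the THRBWT values were 2212, 1600 and 2060 CPM and the THRBKO values 2257, 1713 and 2367 CPM. All 6 livers at ZT14 were thus above all 6 at ZT6, with means of 2035 ± 311 and 690 ± 190 CPM (SD, n = 6, adjusted p = 1.0e-06). The rise began before lights off, since ZT10 livers already had 1447, 1925 and 2048 CPM in THRBWT and 1376, 1742 and 1391 CPM in THRBKO. At ZT18 the levels were 1967, 1224 and 1170 CPM in THRBWT and 1112, 1611 and 1273 CPM in THRBKO. At ZT22 they were 1219, 835 and 1424 CPM and 1256, 956 and 1317 CPM. The genotypes overlapped at each of these 5 times. Hamp2, the second hepcidin gene of the mouse, did not share this course. It ranged from 2.66 to 31.1 CPM in THRBWT and from 5.02 to 30 CPM in THRBKO, and its time means of 10.6 to 16.9 CPM did not pass the test (adjusted p = 0.686).

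**Figure D1:**
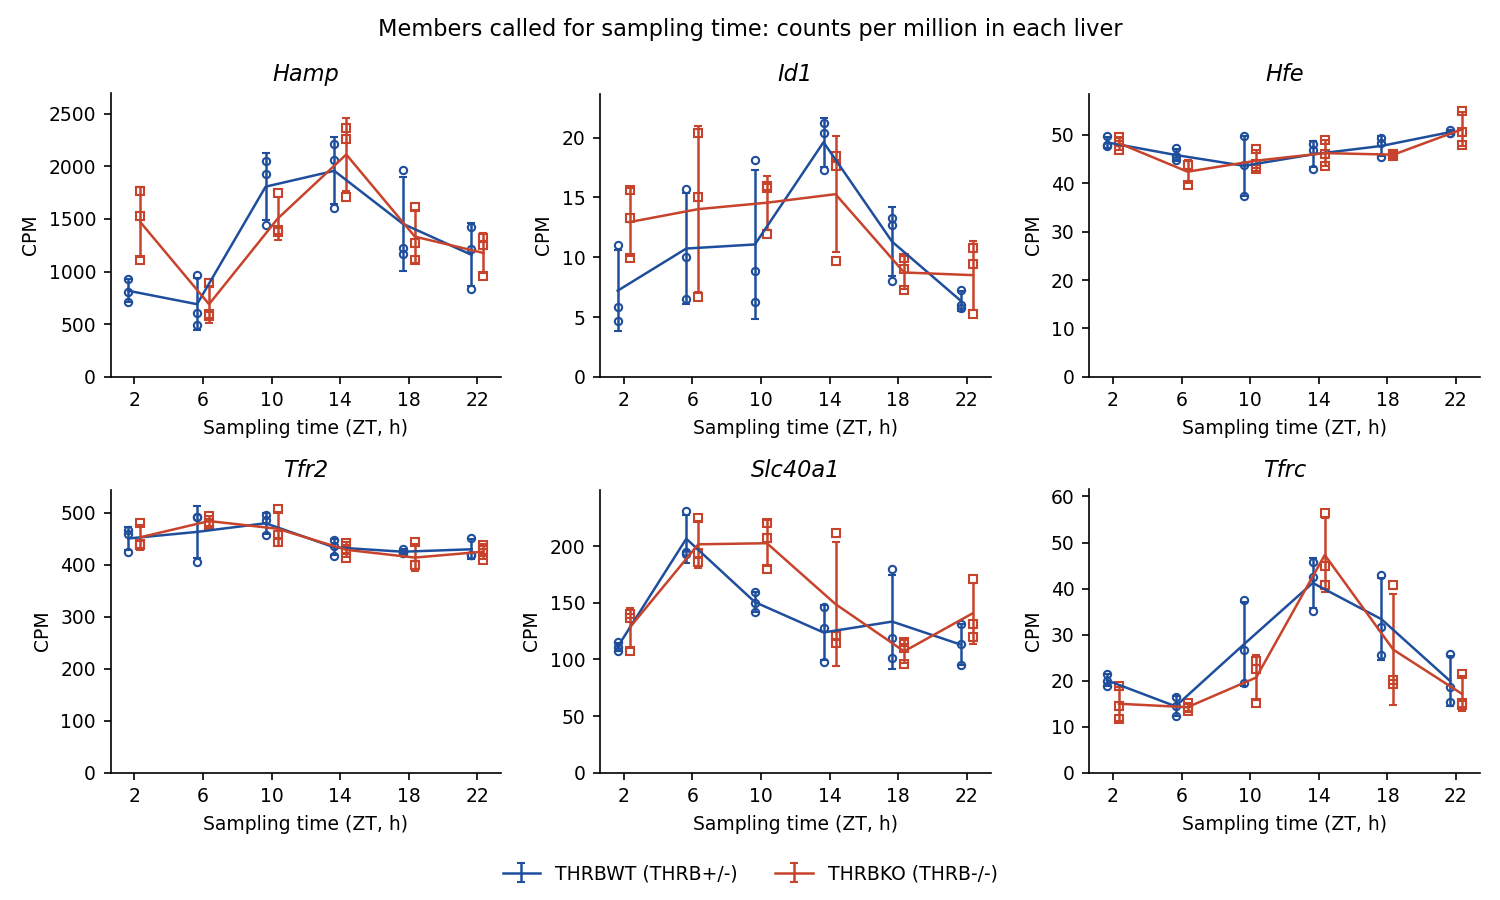
The 6 members called for sampling time, in CPM (y axis, from 0) against ZT in hours (x axis). Points are single livers, lines join the means of 3 mice, and bars are ± SD, for THRBWT (blue circles) and THRBKO (red squares). Hamp and Tfrc were highest at ZT14 (2035 and 44.3 CPM over both genotypes) and lowest at ZT6 (690 and 14.3 CPM), Slc40a1 was highest at ZT6 (204 CPM), and the curves of Tfr2 and Hfe were nearly flat.

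Id1, a DNA-binding inhibitor and BMP and SMAD target gene, was also highest at ZT14, where THRBWT livers had 17.3, 20.4 and 21.2 CPM and THRBKO livers 17.6, 9.68 and 18.5 CPM. It was lowest at ZT22, with 5.78, 6.01 and 7.3 CPM in THRBWT and 5.27, 10.8 and 9.45 CPM in THRBKO. The means at these times differed by 2.35-fold (17.4 ± 4.1 against 7.43 ± 2.22 CPM, SD, n = 6), and 1 THRBKO liver at ZT14 lay within the ZT22 range. Over all 6 sampling times the adjusted p was 0.0077. Without replicate c of every group the adjusted p was 0.0611.

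The hepatocyte iron sensors moved little. Tfr2, which binds diferric transferrin, was highest at ZT10 (475 ± 25.3 CPM, SD, n = 6) and lowest at ZT18 (420 ± 17.3 CPM), a 1.13-fold difference (adjusted p = 0.00539). The ZT10 livers had 444 to 507 CPM and the ZT18 livers 399 to 443 CPM, so the groups met without overlapping. Hfe, the gene mutated in the commonest hereditary haemochromatosis, ran from 44.1 ± 2.53 CPM at ZT6 to 50.8 ± 2.24 CPM at ZT22, a 1.15-fold difference (adjusted p = 0.00714). Here too the 6 livers of the highest time, from 48 CPM upwards, stood above the 6 of the lowest, up to 47.2 CPM. These times were picked as the extremes, so this separation adds no support to the calls of Tfr2 and Hfe. The call for Tfr2 was lost without replicate a (adjusted p = 0.155) or c (0.117) and with no filter on low counts (0.0778). The call for Hfe was lost without replicate b (0.13) or c (0.0502).

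Slc40a1, the iron exporter that hepcidin degrades, followed another course. At ZT6, when Hamp was lowest, it had 195, 231 and 193 CPM in THRBWT and 225, 186 and 194 CPM in THRBKO. At ZT2 the values were 111, 115 and 108 CPM in THRBWT and 140, 137 and 108 CPM in THRBKO. The 6 livers at ZT6 were all above the 6 at ZT2, with means of 204 ± 18.9 and 120 ± 14.7 CPM (SD, n = 6, 1.71-fold, adjusted p = 4.6e-05). A single liver stood high in THRBKO at ZT14 and in THRBWT at ZT18. THRBKO ZT14 replicate c had 212 CPM beside 114 and 121 CPM, and THRBWT ZT18 replicate b had 180 CPM beside 101 and 119 CPM. The latter library also had the highest summed Kupffer cell markers (555 CPM), while the former had 194 CPM. Kupffer cells are rich in ferroportin, and the part of their share in these values was not tested. None of the 8 Kupffer markers was called for sampling time. In the 24 h fits described below, 0 of the 8 were called in THRBWT and 1 in THRBKO. That marker was Cd5l, with a peak at ZT6.15 ± 1.4 (SE, adjusted p = 0.0476). The summed time means of the 8 Kupffer markers ran from 199 to 266 CPM, with 220 CPM at ZT6.

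Tfrc, the receptor that takes up transferrin-bound iron, was highest at ZT14 and lowest at ZT6. At ZT14 THRBWT livers had 35.2, 42.6 and 45.9 CPM and THRBKO livers 44.9, 56.3 and 40.7 CPM. At ZT6 the values were 14.6, 12.3 and 16.5 CPM in THRBWT and 15.2, 13.4 and 14.2 CPM in THRBKO. The groups were far apart, with means of 44.3 ± 7.01 and 14.3 ± 1.47 CPM (SD, n = 6, adjusted p = 1.5e-08). Livers at ZT10 had 26.6, 19.6 and 37.6 CPM in THRBWT, the last within the THRBWT range at ZT14, and 22.5, 24.3 and 15.2 CPM in THRBKO. At ZT18 replicate a was high in both genotypes, with 43 CPM in THRBWT and 40.7 CPM in THRBKO, and the other 4 livers lay between 19.3 and 31.6 CPM.

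The ferritin subunits and transferrin showed no difference among sampling times that passed the test, although each was counted at 39186 reads or more in every library. Fth1, the heavy subunit with ferroxidase activity, had time means of 1380 to 1534 CPM (1.11-fold, adjusted p = 0.553). Ftl1, the light subunit, had time means of 1425 to 1692 CPM (1.19-fold, adjusted p = 0.154). Trf, the plasma iron carrier, had time means of 1612 to 1839 CPM (1.14-fold, adjusted p = 0.638). Of the 4 genes with an IRE hairpin, Tfrc with its 3′ hairpins and Slc40a1 with a 5′ hairpin passed this test, and the ferritin mRNAs with 5′ hairpins did not. Protein levels were not measured here.

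**Figure D2:**
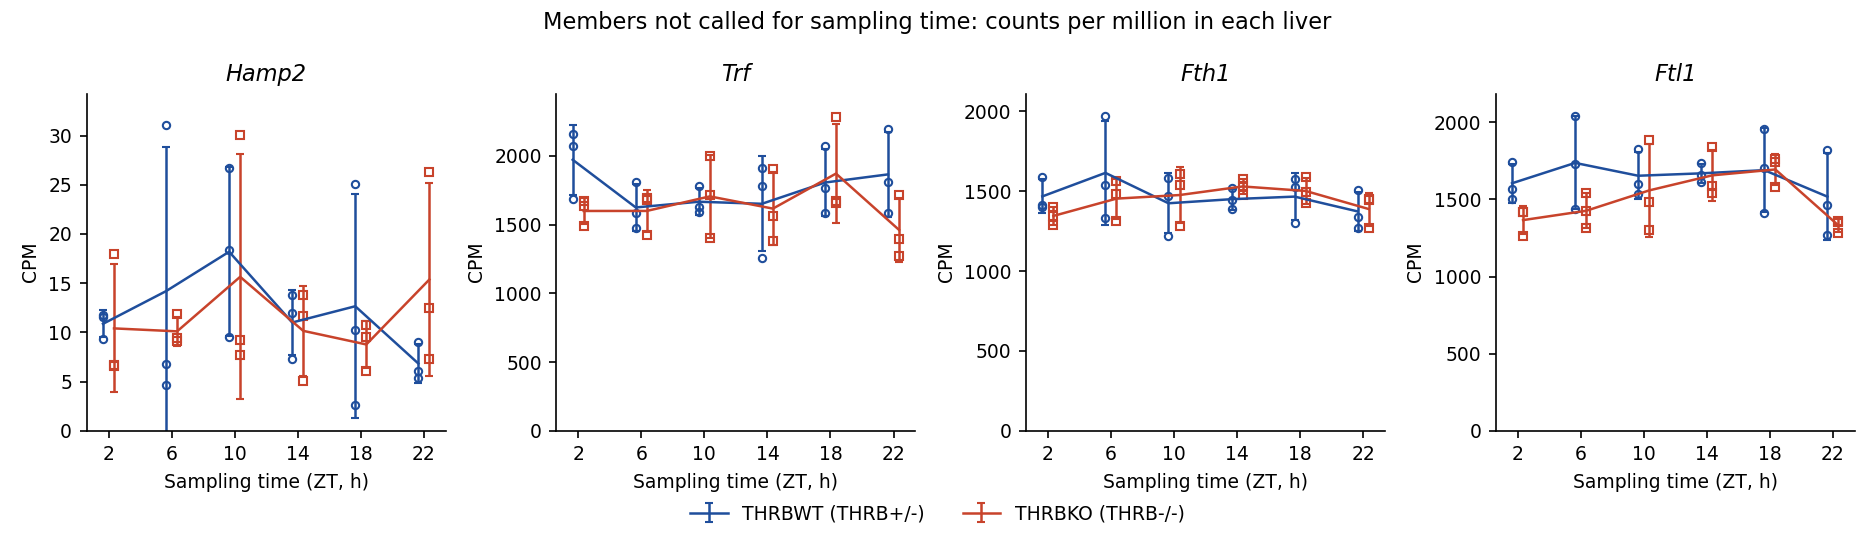
The 4 members not called for sampling time, in CPM (y axis, from 0) against ZT in hours (x axis), with single livers as points, means of 3 mice as lines and ± SD as bars (lower bars of Hamp2 reach below the axis). Trf, Fth1 and Ftl1 stayed between 1217 and 2285 CPM in all 36 livers, and Hamp2 scattered from 2.66 to 31.1 CPM.

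A sine and cosine of 24 h were then fitted within each genotype, over 18 livers each. In THRBWT 4 of 10 members were called rhythmic, against 33.0% of all tested genes, and in THRBKO 4 of 10, against 28.9%. Tfrc and Slc40a1 were called in both genotypes. Tfrc had an amplitude (mean to peak, log2 CPM) of 0.65 ± 0.12 (SE) in THRBWT (adjusted p = 2.8e-04) and 0.75 ± 0.14 in THRBKO (adjusted p = 2.8e-04), peaking at ZT15.2 ± 0.7 and ZT14.8 ± 0.71. Slc40a1 had amplitudes of 0.32 ± 0.11 (adjusted p = 0.0433) and 0.42 ± 0.098 (adjusted p = 0.00529), peaking at ZT8.05 ± 1.3 and ZT7.94 ± 0.89. The peaks of each gene thus fell within 1 SE of each other in the 2 genotypes. The Slc40a1 call was lost in THRBWT without replicate a (0.29) or c (0.181) and in THRBKO without replicate a (0.0859).

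Hamp and Id1 were called in THRBWT. Hamp had an amplitude of 0.72 ± 0.14 with a peak at ZT14.7 ± 0.73 (adjusted p = 5.6e-04), and Id1 0.66 ± 0.18 with a peak at ZT13.1 ± 1.1 (adjusted p = 0.00744). In THRBKO the fitted amplitude of Hamp was 0.43 ± 0.16 (adjusted p = 0.113) and that of Id1 0.41 ± 0.16 (adjusted p = 0.0752). Tfr2 and Ftl1 were called in THRBKO, with amplitudes of 0.11 ± 0.021 (adjusted p = 0.0186) and 0.17 ± 0.048 (adjusted p = 0.0318). In THRBWT these amplitudes were 0.08 ± 0.026 for Tfr2 (adjusted p = 0.162) and 0.06 ± 0.06 for Ftl1 (adjusted p = 0.764). The Ftl1 call in THRBKO was lost without the library THRBKO ZT14 replicate c (0.0665), and without replicate a (0.118) or c (0.436) of every group. Tfr2 in THRBKO was lost without replicate a (0.215), b (0.161) or c (0.0557) and with no filter (0.0686). Id1 in THRBWT was lost without replicate b (0.0864) or c (0.0656).

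**Figure D3:**
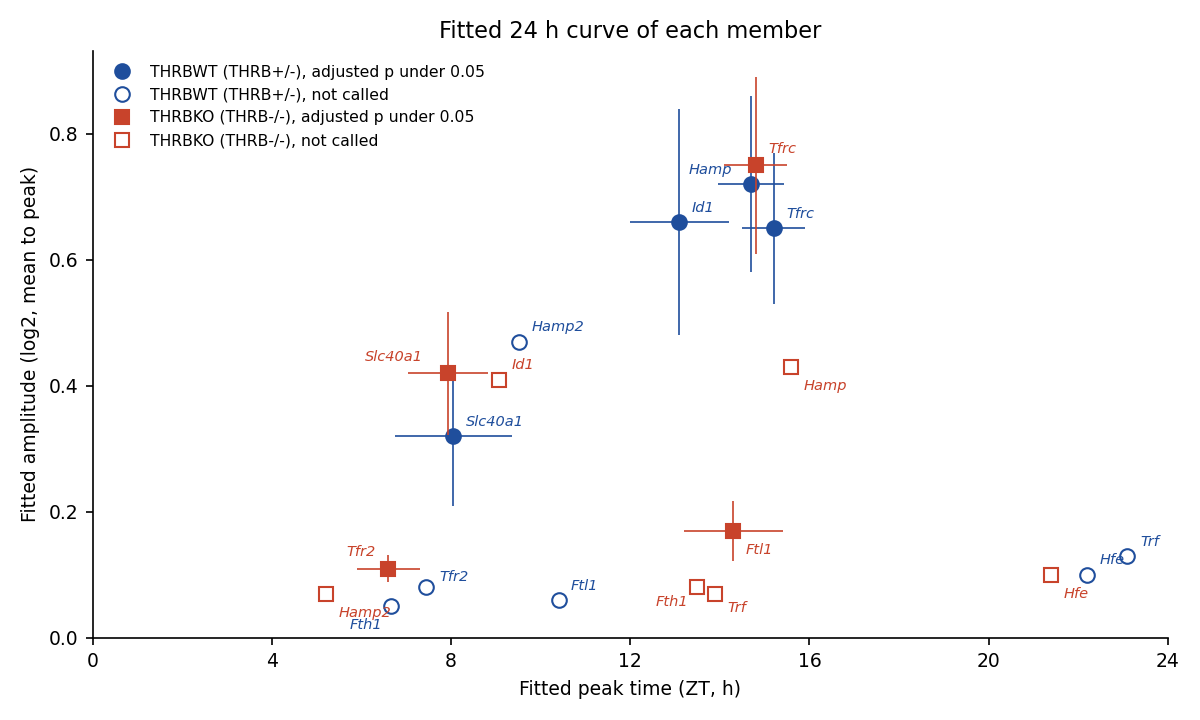
Fitted amplitude (y axis, log2 CPM from mean to peak) against fitted peak time (x axis, ZT in hours) for each member in THRBWT (blue circles) and THRBKO (red squares). Filled symbols passed the rhythm test and carry ± SE bars, open symbols did not pass. Tfrc in both genotypes and Hamp and Id1 in THRBWT lie together between ZT13.1 and ZT15.2 with amplitudes of 0.65 to 0.75, and Slc40a1 lies near ZT8 in both genotypes.

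A call in one genotype alone does not show a difference, so the difference of the fitted curves was tested itself. It was called for 0 of 10 members by edgeR, against 0% of all tested genes, and for none by DESeq2. At an unadjusted p under 0.05, 1 of 10 members stood out, against 3.07% of all genes. This count was 4 with each same-time, same-letter pair of THRBWT and THRBKO livers as a block, and 0 without replicate b or c. The 1 member was Id1 (unadjusted p = 0.036, adjusted p = 1), whose fitted peak was at ZT9.07 ± 1.5 in THRBKO and ZT13.1 ± 1.1 in THRBWT, a difference of -4.04 ± 1.8 h (SE, THRBKO minus THRBWT). For Hamp the amplitude differed by -0.29 ± 0.21 (SE, THRBKO minus THRBWT) with an unadjusted p of 0.195. Its highest and lowest time means, at ZT14 and ZT6 in both genotypes, differed by 2.84-fold in THRBWT and 3.06-fold in THRBKO. The data therefore do not show a change of rhythm in any member, and for Hamp they leave room for a difference of the size of that fitted amplitude difference.

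The genotype effect adjusted for sampling time was called for 0 of 10 members by edgeR, against 0.950% of all tested genes, and for none by DESeq2. At an unadjusted p under 0.05, 1 of 10 members passed, against 12.1% of all genes. The members' log2 fold changes (THRBKO minus THRBWT) lay between -0.20 and 0.21, with a median of -0.02 beside -0.001 for all tested genes. The ferritin light chain Ftl1 was the member with the lowest p. It ranged from 1267 to 2042 CPM (median 1636) in THRBWT and from 1262 to 1887 CPM (median 1456) in THRBKO. The ranges overlapped almost entirely, with means of 1645 ± 197 and 1505 ± 195 CPM (SD, n = 18) and a log2 fold change of -0.13 ± 0.0546 (SE, unadjusted p = 0.0202, adjusted p = 0.302). The THRBKO mean was lower at 5 of 6 times. For Tfrc, in the uptake arm, this value was -0.20 ± 0.105 (SE, adjusted p = 0.451), also with a lower THRBKO mean at 5 of 6 times. It was -0.30 without replicate a and -0.06 without replicate c.

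For the other members the intervals show what these 36 livers leave possible. The 95% intervals of the log2 fold change were narrow for the sensors Hfe (-0.08 to 0.04) and Tfr2 (-0.06 to 0.05) and for Fth1 (-0.11 to 0.08). They were wider for Trf (-0.24 to 0.04), Slc40a1 (-0.03 to 0.32), Hamp (-0.13 to 0.32) and Id1 (-0.12 to 0.55), and widest for Hamp2 (-0.59 to 0.49). Hamp had a median of 1221 CPM in THRBWT (496 to 2212) and 1346 CPM in THRBKO (579 to 2367). Its means, 1314 ± 549 and 1380 ± 488 CPM (SD, n = 18), differed by far less than the spread over the day.

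**Figure D4:**
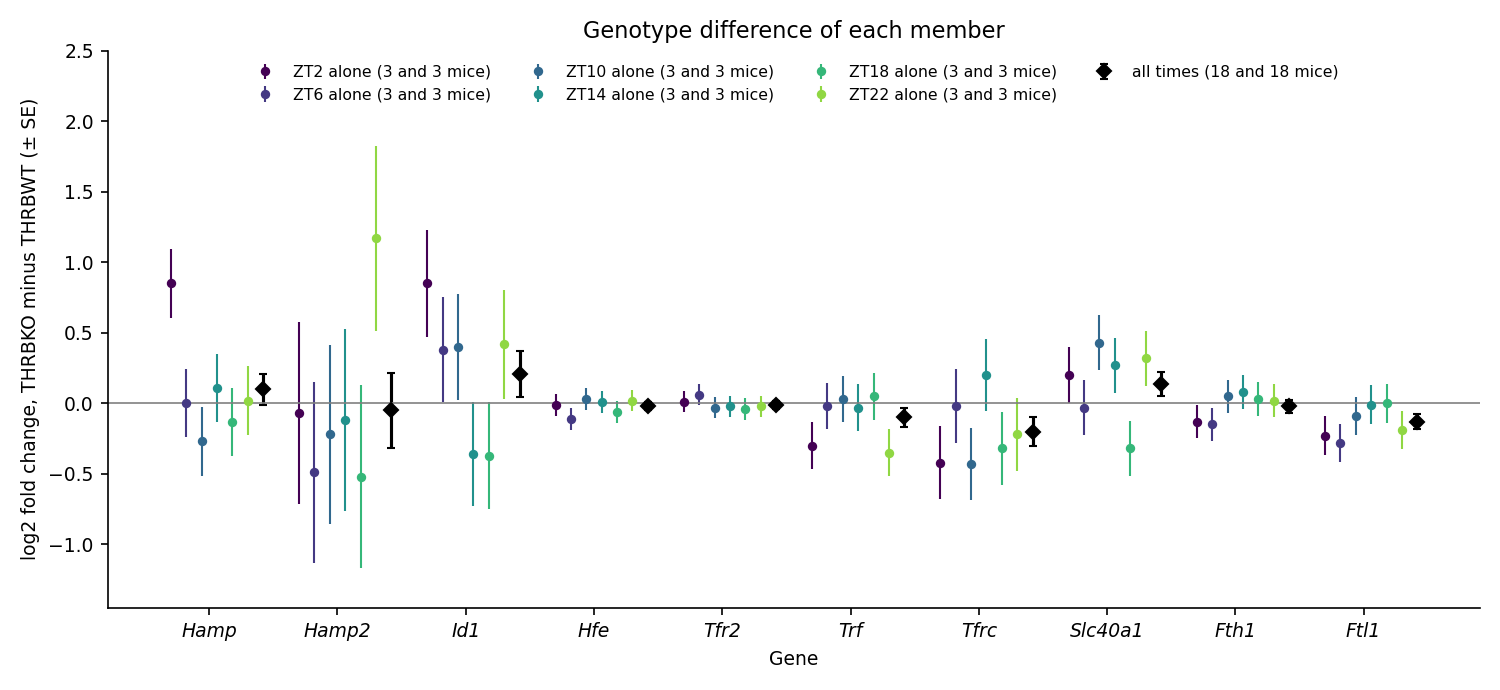
Log2 fold change of each member, THRBKO minus THRBWT (y axis, ± SE), for each sampling time alone (coloured circles, 3 against 3 mice) and over all times (black diamonds, 18 against 18 mice). The diamonds lie between -0.20 and 0.21, and the point for Hamp at ZT2 is at 0.85.

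The genotype difference was also tested at each time, and whether it varied among times. The genotype by time interaction was called for 0 of 10 members by edgeR, against 0% of all genes, and for none by DESeq2, with 1 of 10 members at an unadjusted p under 0.05, against 2.69%. That member was Hamp (unadjusted p = 0.0488, adjusted p = 1), and over 9 alternative settings its unadjusted p ran from 0.00583 to 0.156. Over the 60 pairs of member and time, the single-time contrast was called 0 times by edgeR and by DESeq2, against 0.0195% over all genes and times, and 5 pairs had an unadjusted p under 0.05, against 4.89%. In 6 of the 60 pairs the 3 THRBKO livers did not overlap the 3 THRBWT livers, against 9.96% over all genes and times, a share near that background.

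ZT2 was singled out after these values were seen. Hamp at ZT2 had 711, 809 and 933 CPM in THRBWT and 1531, 1765 and 1110 CPM in THRBKO. All 3 THRBKO livers were above all 3 THRBWT livers, by 1.8-fold in the means (1469 ± 332 against 817 ± 111 CPM, SD, n = 3). The log2 fold change was 0.85 ± 0.244 (SE), with an unadjusted p of 0.00165 and an adjusted p of 0.864 in edgeR. Over 9 alternative settings the log2 fold change was 0.69 to 1.12 and the adjusted p 0.208 to 0.99. An exact two-sided permutation test of 3 against 3 mice gave p = 0.10, the smallest it allows. Id1 at the same time had 11, 5.86 and 4.7 CPM in THRBWT and 15.6, 9.9 and 13.3 CPM in THRBKO. These groups overlapped, also with a 1.8-fold difference in the means (unadjusted p = 0.0345, adjusted p = 0.864). On the uptake and storage side, Tfrc, Trf and Ftl1 had all 3 THRBKO livers below the THRBWT livers at ZT2, while Fth1 overlapped. For Tfrc the values were 18.9, 20 and 21.4 CPM in THRBWT and 18.9, 14.5 and 11.6 CPM in THRBKO, so the nearest livers were equal after rounding. The nearest livers had 1683 CPM in THRBWT and 1673 CPM in THRBKO for Trf, and 1501 and 1418 CPM for Ftl1. In all, 4 of 10 members did not overlap at ZT2, against 12.9% of all genes, and none of the 4 passed the adjusted test.

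The remaining pairs with an unadjusted p under 0.05 were Slc40a1 at ZT10, Trf at ZT22 and Ftl1 at ZT6. Slc40a1 at ZT10 had 142, 159 and 150 CPM in THRBWT and 180, 207 and 220 CPM in THRBKO, with no overlap (log2 fold change 0.43 ± 0.196, unadjusted p = 0.0374, adjusted p = 1). Trf at ZT22 had 2199, 1585 and 1813 CPM in THRBWT and 1719, 1274 and 1392 CPM in THRBKO, which overlapped (unadjusted p = 0.0414, adjusted p = 0.988).

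The surrounding pathway was read through 8 gene lists with 64 genes, of which 61 were tested. Of these, 33 were called for sampling time, 54.1% against the 45.0% of all genes, and 1 for genotype, against 0.950% of all genes. The highest and lowest times given for these genes are of means over both genotypes, and the adjusted p beside them is of the test over all 6 times. In the list of BMP and SMAD induction, 7 of 16 tested genes were called for time. Hjv, the BMP co-receptor listed in the table under its older name Hfe2, had its extremes at other times than Hamp, with 62.8 ± 6.82 CPM at ZT10 and 126 ± 9.96 CPM at ZT22 (SD, n = 6, adjusted p = 9.3e-09). Its 6 ZT22 livers, from 107 CPM upwards, stood clear of the 6 ZT10 livers, up to 70.6 CPM. Smad9, a receptor-regulated SMAD, went the other way, from 9.41 ± 1.95 CPM at ZT2 to 28 ± 4.74 CPM at ZT10 (2.98-fold, adjusted p = 2.9e-09). Tmprss6, the protease that cleaves hemojuvelin, and Furin, a protease that processes several of these proteins, were highest at ZT6 with smaller swings of 1.17-fold (adjusted p = 0.00212) and 1.35-fold (adjusted p = 9.3e-05). Smad4 and Smad5 were also highest at ZT6, by 1.23-fold and 1.24-fold over their lowest times. The ligands made by liver endothelium, Bmp2 (9.01 to 11.5 CPM over the time means) and Bmp6 (4.14 to 6.33 CPM), did not pass (adjusted p = 0.399 and 0.183). Of the endothelial markers, 5 of 8 were called for time, and their sum ran from 177 CPM at ZT6 to 239 CPM at ZT22.

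Of 6 other BMP and SMAD targets, 3 were called for time, and over both genotypes their highest means were at ZT2 or ZT6. Smad7, the inhibitory SMAD, was highest at ZT6 (26.5 ± 8.99 CPM, SD, n = 6) and lowest at ZT22 (13.2 ± 2.97 CPM, adjusted p = 9.3e-05). Within THRBWT, Smad7 had 18.5, 18.6 and 30.7 CPM at ZT6 and 25.2, 27 and 27 CPM at ZT14, so its mean there was highest at ZT14, the time at which Hamp and Id1 were highest. This did not hold in THRBKO, with 32.1, 19.2 and 39.7 CPM at ZT6 and 24.6, 18.3 and 21.2 CPM at ZT14. The fitted 24 h peaks of Smad7 were ZT10.5 ± 1 (SE) in THRBWT and ZT7.41 ± 0.7 in THRBKO. Id2 was highest at ZT6 and lowest at ZT10 (192 ± 22.7 and 124 ± 28.1 CPM, adjusted p = 0.00305). Id3 was highest at ZT2 and lowest at ZT10 (171 ± 90.4 and 73.7 ± 27.6 CPM, adjusted p = 0.00316).

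Among regulators of the IL-6 arm and of hepatocyte identity, 5 of 7 were called for time. Il6ra, the ligand-binding IL-6 receptor chain, rose from 23.4 ± 2.94 CPM at ZT2 to 67.6 ± 8.7 CPM at ZT10 (2.89-fold, adjusted p = 3.7e-07). The hepatocyte factors Cebpa and Hnf4a were highest at ZT6 (640 ± 87.6 CPM, adjusted p = 1.9e-06) and ZT14 (785 ± 31.9 CPM, adjusted p = 1.5e-04). Stat3 and Creb3l3 were both highest at ZT6, with swings of 1.24-fold and 1.19-fold. Of 6 acute phase genes, 2 were called, Fgb and Orm2, both highest at ZT2. For Orm2 the spread at ZT2 was wide (21.9 ± 23.1 CPM, SD, n = 6). Its livers there overlapped those of its lowest time, ZT6 (6.63 ± 2.1 CPM). Saa1, a strongly inflammation-responsive gene, was also highest at ZT2 (70.9 ± 82.7 CPM) but was not called (adjusted p = 0.182).

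In the list of cytosolic iron sensing, 4 of 8 genes were called for time. Ireb2 and Aco1, which encode the 2 iron regulatory proteins, had their extremes at different times. Ireb2 was highest at ZT10 and lowest at ZT14 (79.6 ± 8.65 and 56.7 ± 2.65 CPM, adjusted p = 1.9e-07), and Aco1 was highest at ZT18 and lowest at ZT6 (298 ± 15 and 245 ± 19.1 CPM, adjusted p = 7.7e-04). Pcbp2, a cytosolic iron chaperone, was highest at ZT10 (97.1 ± 5.15 CPM) and lowest at ZT18 (71.3 ± 6.68 CPM, adjusted p = 2.7e-08).

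Fbxl5 was the single gene of the 61 that was called for genotype. With 0.950% of all tested genes called, 1 of 61 was near that background. It encodes the iron-sensing subunit of the ubiquitin ligase that removes iron regulatory protein 2. It ranged from 20.4 to 28.2 CPM (median 23.2) in THRBWT and from 22.1 to 30.5 CPM (median 25.8) in THRBKO. The ranges overlapped, but the THRBKO mean was higher at 6 of 6 times. The means were 23.6 ± 2.45 and 26.2 ± 2.15 CPM (SD, n = 18), and the log2 fold change was 0.15 ± 0.0314 (SE, adjusted p = 0.00658). The adjusted p was 0.282, 0.0741 and 0.052 without replicate a, b and c of every group, each a fit to 24 livers with log2 fold changes of 0.15 to 0.16, and 0.242 without the sampling time term.

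Of the genes for iron uptake, reduction and oxidation, 7 of 9 were called for time. Steap3, a ferrireductase of endosomes, had the lowest p, with 37.5 ± 3.93 CPM at ZT2 and 19.1 ± 1.61 CPM at ZT10 (SD, n = 6, 1.97-fold, adjusted p = 1.1e-13). Slc11a2, the endosomal iron transporter DMT1, shared those times (50.5 ± 6.38 and 31.7 ± 3.33 CPM, adjusted p = 2.1e-07). Of the ZIP transporters, Slc39a14 was highest at ZT14 and lowest at ZT2 (144 ± 12.6 and 92.7 ± 18.4 CPM, adjusted p = 8.5e-04), and Slc39a8 was highest at ZT2 and lowest at ZT14 (27.9 ± 3.16 and 16.4 ± 1.65 CPM, adjusted p = 6.4e-09). These transporters thus had their extremes at exchanged times. Steap2, another ferrireductase, was highest at ZT6, by 1.6-fold over ZT22. Cybrd1, a ferrireductase best known from the duodenum, was called at levels of 0.117 to 0.355 CPM over the time means.

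Of 5 tested mitochondrial iron genes, 4 were called for time. Slc25a37 and Slc25a28, the mitoferrins that carry iron into mitochondria, were both highest at ZT10. Slc25a37 had 63.5 ± 5.5 CPM at ZT10 and 42.3 ± 2.58 CPM at ZT2 (SD, n = 6, adjusted p = 1.5e-05). Of 4 scavengers of haem and haemoglobin, Lrp1, the haemopexin receptor, was called, with 714 ± 52 CPM at ZT6 and 514 ± 26.6 CPM at ZT18 (adjusted p = 2.8e-05).

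**Figure D5:**
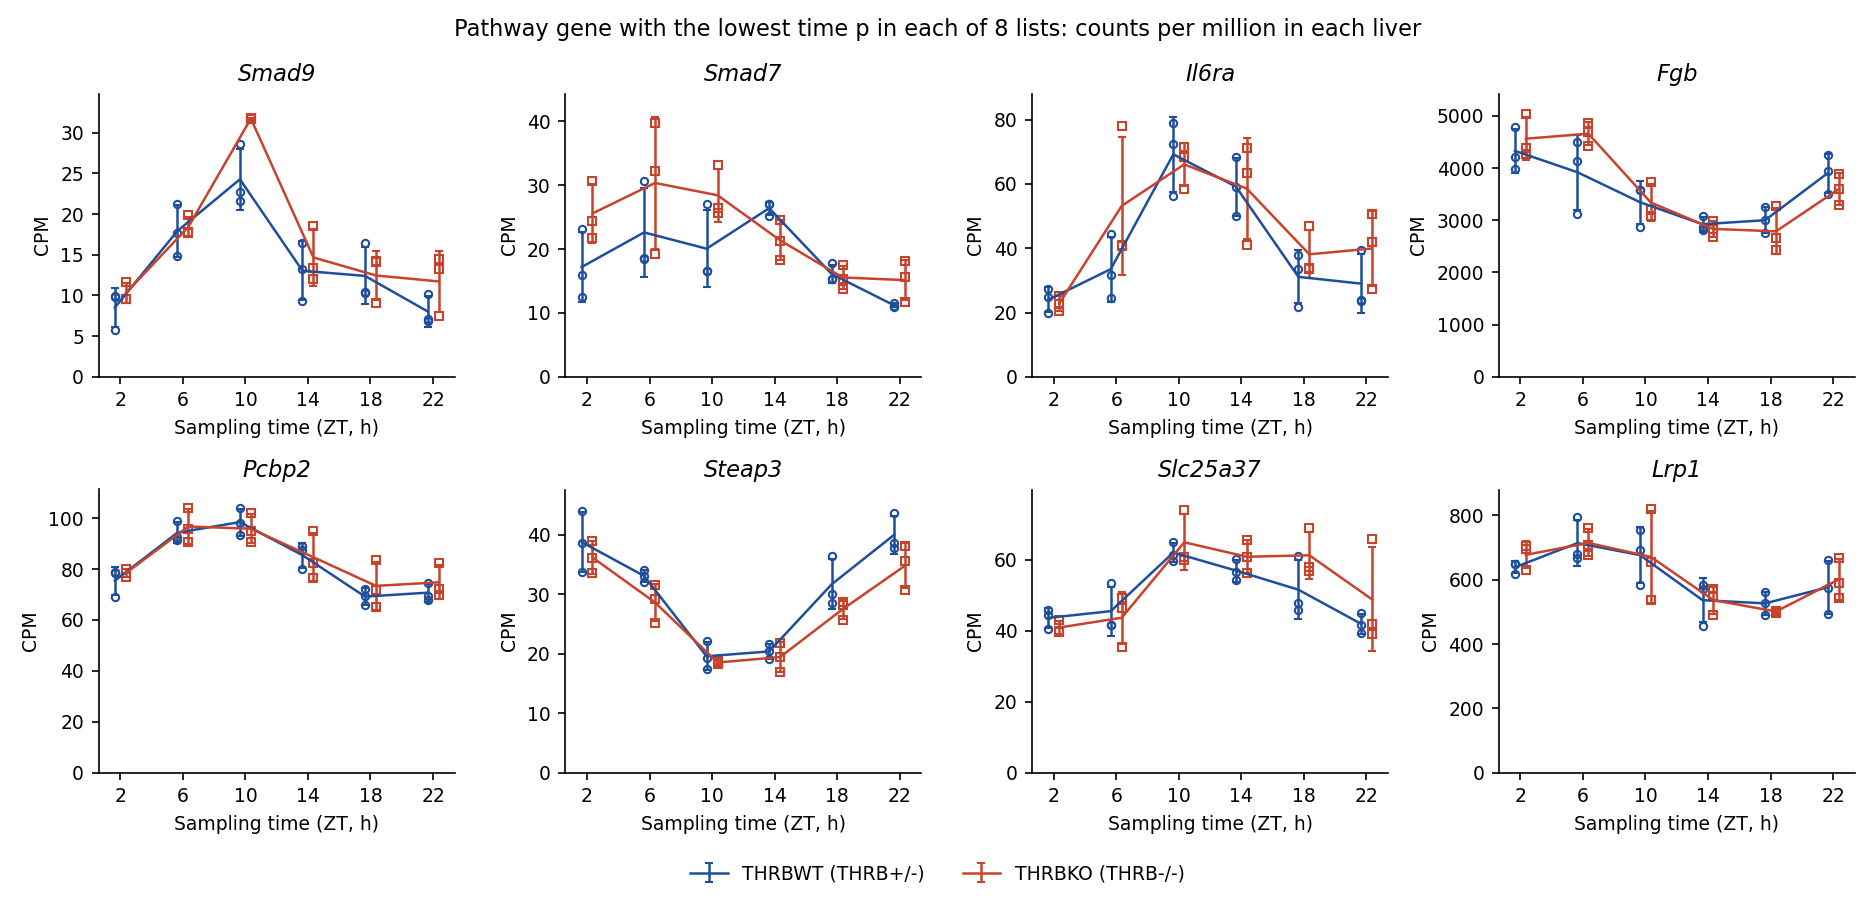
The gene with the lowest sampling time p in each of the 8 pathway lists, in CPM (y axis, from 0) against ZT in hours (x axis), with single livers as points, means of 3 mice as lines and ± SD as bars (THRBWT blue, THRBKO red). Smad9, Il6ra, Pcbp2 and Slc25a37 were highest at ZT10 over both genotypes, and Steap3 was lowest there (19.1 CPM).

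The genes whose 12 group means of log2 CPM most resembled those of 4 members were listed among 9470 genes with at least 5 CPM, by Pearson correlation, as a description. For Hamp they were Kif13a (r = 0.963), Lyst, Mbnl2 and Rasal2 (0.928). For Tfrc they were Dnaja1 (0.968), Atp6v1d, Gm15542, Eif4a1 and Eif1ad (0.958). For Slc40a1 they were 5031439G07Rik (0.964), Lima1, Ripk2, Man2b2 and Mapk6 (0.938), and for Id1 C2cd2l (0.898), Hand2, Akt1, Mettl13 and Ubr7 (0.877). These genes share libraries and sampling times with the members.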

How the data were processed

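Gene counts of 36 mouse livers were used as deposited. Per the labels and the study's methods, the authors made poly(A), non-directional paired-end libraries, aligned reads to GRCm38/mm10 with HISAT2 and counted them per gene with featureCounts, so reads of antisense neighbours cannot be told apart. The deposited counts are whole reads per gene, not normalized. The gene length listed beside them, as deposited, was used for levels per kilobase. Genes with a summed count of at least 100 were tested with edgeR 4.0.16 (TMM, quasi-likelihood test, Benjamini-Hochberg, threshold 0.05), with sampling time as covariate of genotype and the reverse. Standard errors are the log2 fold change over the root of F, and 95% intervals use the 29 residual degrees of freedom of that fit. Amplitudes and peaks came from least squares fits to log2 CPM (prior count 2). Alternatives were DESeq2 1.42.0, limma 3.58.1, DESeq2's size factors, other filters, a replicate block, no time term and leaving out replicates. In tests between genotypes the replicate block was each same-time, same-letter pair of THRBWT and THRBKO livers. In tests of sampling time and of rhythms within a genotype it was the letter. The procedure was checked on simulated counts drawn independently for each library, so this check does not cover anything shared by same-letter livers. No 2 libraries of a group agreed within sampling noise (chi-square per gene at least 32.7). The members and lists were chosen with earlier results of these data known. All 10 members are named, up to 6 called genes per list by adjusted p, and the 5 genes most like Hamp, Tfrc, Id1 and Slc40a1, except some genes that are not reported here. Genes named beyond this rule (Bmp2, Bmp6, Saa1, Thrb) were added for their role. Replicates are separate mice.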

Additional observations from a re-analysis of the deposited data

How the results depend on the processing

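Calls for Hamp, Tfrc and Slc40a1 among sampling times held under all 9 alternatives, none of which treated same-time, same-letter livers as pairs in this test. Leaving out replicate a, b or c of every group left 3 to 6 of 10 members called for sampling time, 2 to 3 for a rhythm in THRBWT and 1 to 3 in THRBKO, from 24 livers for the first and 12 for the rhythms. Without the library THRBKO ZT14 replicate c, a fit chosen after seeing the data, these counts were 6, 4 and 3. Members called for genotype, the interaction or a rhythm difference stayed at 0. At an unadjusted p under 0.05 these counts were 1 each, with ranges over the alternatives of 1 to 2, 0 to 3 and 0 to 4. Gene counts for genotype were 171, against 306 with DESeq2, 387 with the replicate block, 65 with no sampling time term and 42 to 85 without a replicate. For single times they were 21, against 52 with DESeq2, 43 with no filter on low counts, 36 with the replicate block and 7 to 18 without a replicate. For rhythms they were 5936 in THRBWT, against 3175 to 4053 without a replicate, and 5201 in THRBKO, against 2394 to 3260. For a rhythm difference the count was 0, against 1 with the replicate block. The sign of the genotype log2 fold change turned for Hamp2 with the replicate block (0.005) and without replicate c (0.23), and for Tfr2 (0.003) and Hfe (0.001) without replicate a, with leave-out ranges of -0.32 to 0.23, -0.02 to 0.003 and -0.03 to 0.001, and with none of these past the threshold. Hamp2 was called for sampling time without replicate b (adjusted p = 0.0314), and Id1 for a rhythm in THRBKO with DESeq2 (0.034). The cause of these changes was not tested. Same-letter deviations of the genotypes correlated over 0.1 in 16 of 18 pairs (-0.061 to 0.395), and 33 of 36 libraries correlated best with their own letter, a hint that the letters mark something shared. The sample descriptions also hold numbers that are often close between same-letter livers. What they mark is not given in the sources used here, and not every pair passed 0.1. Same-time, same-letter livers were therefore used as pairs only in the replicate block of tests between genotypes, and not in the main fits. Every fit of sampling time counted the livers of a time as separate, so anything shared within pairs was not allowed for there. The replicate block changed no member's adjusted call. Depth limits Id1 and Hamp2 most, with as few as 160 and 98 reads in a library.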

Other observations

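Mouse-to-mouse variation was read from the deviations of log2 CPM from the mean of each of the 12 groups, over 36 livers, for 6 pairs of genes, with values permuted within groups (100000 permutations, two-sided, Benjamini-Hochberg over the 6 pairs). The ferritin subunits Fth1 and Ftl1 deviated together (Pearson r = 0.79, adjusted p = 1.2e-04; Spearman rho = 0.74, adjusted p = 5.4e-04), and r was 0.73 without the 2 livers with the farthest Fth1 values. Hamp and its fellow BMP target Id1 had r = 0.11 (rho = 0.15, adjusted p = 0.622 and 0.539), so livers with high Hamp for their time were not found to have high Id1. Hamp with Smad7 had r = 0.22 (rho = 0.24, adjusted p = 0.479 and 0.366), Hamp with Tfrc r = 0.15 (rho = 0.13, adjusted p = 0.538 and 0.539) and Hamp with Hamp2 r = -0.25 (rho = -0.26, adjusted p = 0.479 and 0.366). Hamp with the acute phase gene Saa1 had r = -0.39 (rho = -0.39), with unadjusted p of 0.0437 and 0.0471 and adjusted p of 0.131 and 0.141, and r = -0.35 without the 2 livers with the farthest Hamp values. All values of a pair come from the same library and share its scaling.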
